A study of Mus musculus with 8 samples.

Results

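The genes of the proteasome were compared between skin fibroblasts of Nd2-mutant and control mice. Members were all array probes whose gene symbol begins with Psm, a letter from a to g and a number. Psmb8, Psmb9 and Psmb10, the catalytic subunits of the immunoproteasome, were left out. The rule used names and no measured value, and it took 61 probes of 41 symbols out of 25697 probes and 18138 symbols. The pattern also took Psmc3ip, which encodes a factor of meiotic recombination and no proteasome subunit.

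RNA was taken from primary skin fibroblasts at passage 1, grown in serum-containing medium, of 8 mice aged 12 months, with 1 MouseRef-8 v2.0 BeadChip array per mouse. The Nd2-mutant strain, C57BL/6J-mtALR/LtJ, is conplastic: its nuclear genome is that of C57BL/6J and its mitochondrial genome that of ALR/LtJ, with an amino acid exchange in NADH dehydrogenase subunit 2. The control strain, C57BL/6J-mtAKR/J, carries the same nuclear background with the mitochondrial genome of AKR/J. The Nd2-mutant mice were 28 and 32, male, and 34 and 35, female, and the control mice were 16 and 17, male, and 15 and 37, female. The labels name no treatment. All proteasome genes lie in the nuclear genome, which the strains share by breeding.

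The proteasome degrades proteins that carry chains of ubiquitin. Its 20S core is a barrel of alpha and beta subunits, and Psmb5, Psmb6 and Psmb7 encode the catalytic beta subunits of the constitutive form. The 19S particle caps the core with ATPases that unfold the substrate and non-ATPase subunits that bind and remove ubiquitin, while PA28 (Psme1 with Psme2, or Psme3) and PA200 (Psme4) are alternative caps. Interferon-gamma is known to raise Psme1, Psme2 and the immunoproteasome subunits, and the transcription factor Nfe2l1 is known to raise most subunit genes when proteasome activity is low.

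Intensities are the normalised, background-subtracted values of the array on the linear scale, and differences are Nd2-mutant minus control on the log2 scale after adding 16. Of the 61 probes, 47 were detected (detection p-value under 0.01) on all 8 arrays, 7 on some and 7 on none. Tests were run on the 50 probes, of 35 genes, that every array of one strain or of the other detected. Between 10973 and 11350 probes of the whole array were detected in Nd2-mutant and between 10663 and 10837 in control fibroblasts. The array of control mouse 15 stood apart, its correlations with the others averaging 0.934 over the tested probes, against 0.963 to 0.974 for the other 7, so the values it moved most are given with and without it. All 11 fibroblast markers with a probe were detected on every array, Fn1 having none, and their summed intensity was 38346 to 45735 in Nd2-mutant and 32762 to 48490 in control fibroblasts. Of 9 macrophage markers 2 were detected on all arrays and Ptprc on none, and their sum was 1481 in Nd2-mutant mouse 35 against 216 to 555 in the other 7 mice.

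In the strain comparison no proteasome gene differed after adjustment. In Nd2-mutant fibroblasts 32 of the 50 tested probes were higher and 18 lower, with a median log2 difference of 0.09, against 50.2% higher and a median of 0.00 over all 10414 tested probes. With limma, 0 of the 50 probes passed an adjusted p of 0.05, and 0% of all tested probes did. An unadjusted p under 0.05 was found for 4 probes, 3 higher and 1 lower, against 4.5% of all tested probes higher and 3.13% lower. In the methods' t-test, run here on the log2 values, 4 probes had one, against 6.7% of all tested probes. Of these 4, 3 were the same, while Psmf1 ILMN_3094023 was lost and Psmg2 ILMN_3074516 was added. Without control mouse 15 the direction turned: 21 probes were higher and 29 lower, the median was -0.05, and 3 probes had an unadjusted p under 0.05 (2 higher against 4.16% of all tested probes, 1 lower against 3.74%). The 95% confidence interval of a probe reached a median of 0.36 to either side, so that differences of this size could not be told from 0. In bulk RNA, fewer cells of a type and less RNA per cell cannot be told apart.

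**Figure D1:**
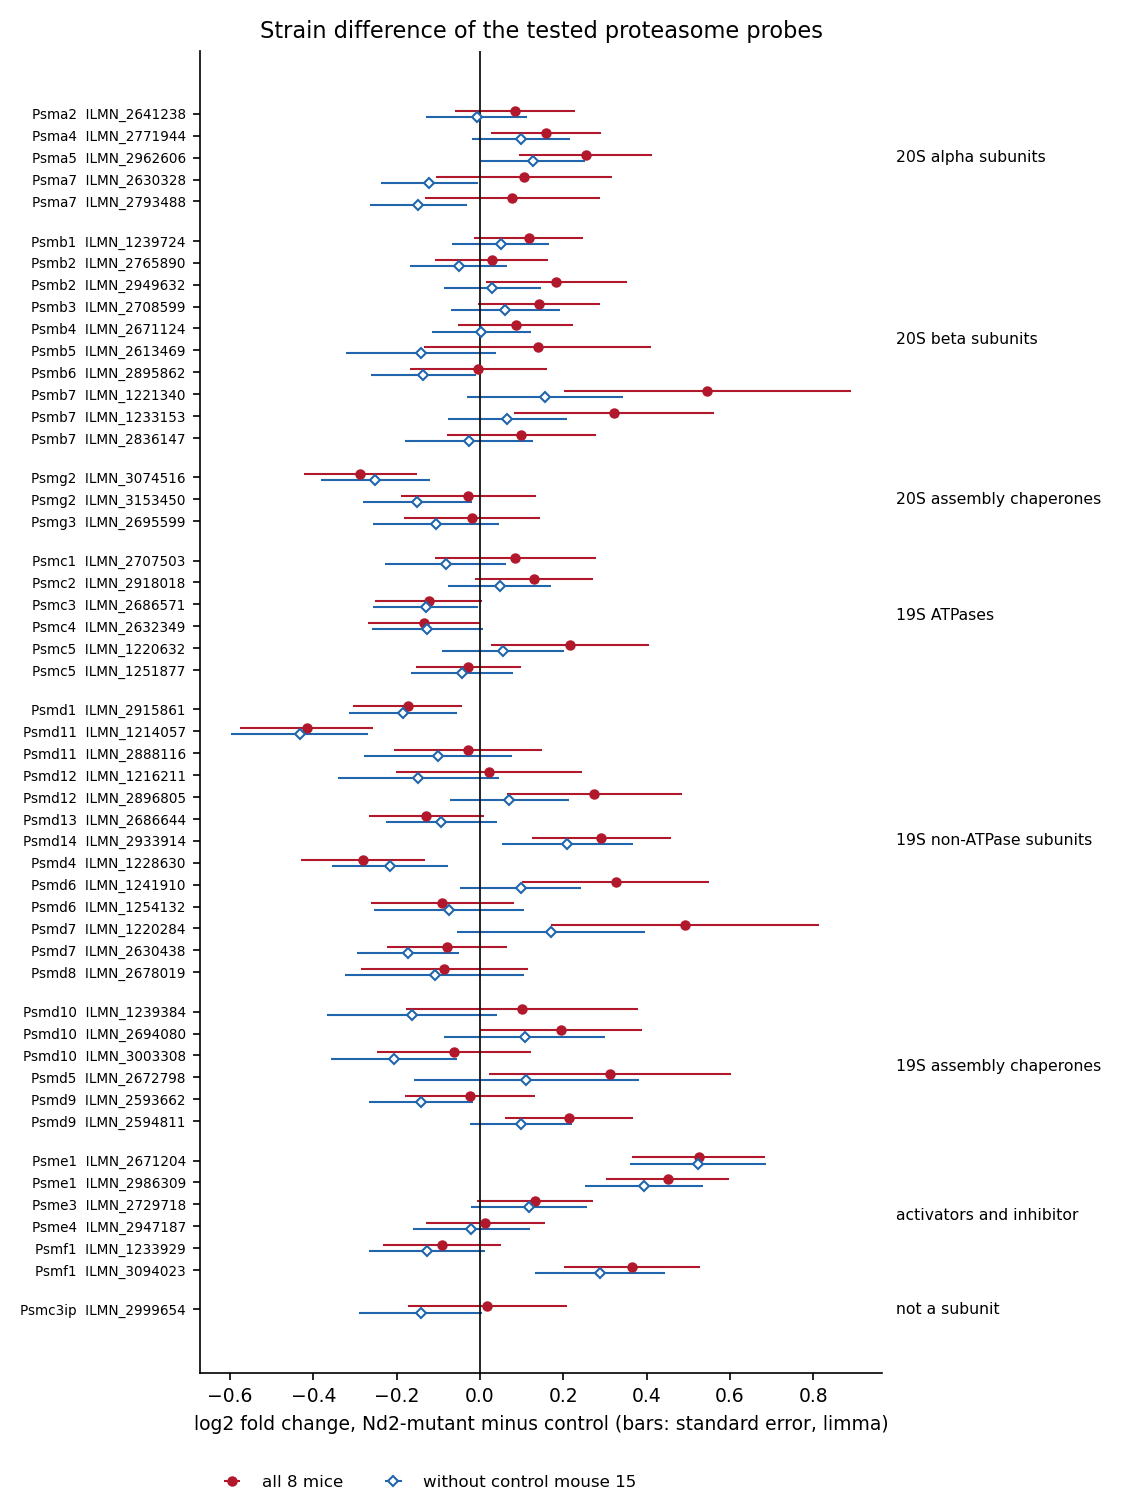
Log2 fold change (x axis, Nd2-mutant minus control, with the standard error from limma as bars) of each of the 50 tested proteasome probes (y axis, by role), over all 8 mice (filled circles) and without control mouse 15 (open diamonds). Both Psme1 probes lie at 0.45 or above with all mice and keep their side without mouse 15, while 14 of the 15 core probes lie right of 0 with all mice and 8 of the 15 without mouse 15.

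Of the 6 tested probes of the caps and the inhibitor of the core, 5 were higher and 1 lower. In limma 3 had an unadjusted p under 0.05, all higher, against 4.5% of all tested probes. Of these 3, 2 were of the same gene, Psme1. The other was a Psmf1 probe that entered the test through the Nd2-mutant arrays, where it was higher. Without mouse 15 the count was 2, both of Psme1. Psme1, which encodes the alpha subunit of PA28, was measured by a pair of probes, and in both all 4 Nd2-mutant mice lay above all 4 control mice. On probe ILMN_2671204 the intensities were 380.2, 381, 324 and 446 in Nd2-mutant mice 28, 32, 34 and 35, and 258, 208, 306 and 275 in control mice 15, 16, 17 and 37. The groups did not overlap, the lowest Nd2-mutant value (mouse 34) standing above the highest control value (mouse 17). The means were 383 ± 49.8 (SD, n = 4) and 262 ± 41.1 (SD, n = 4), a log2 difference of 0.52 with a 95% interval from 0.17 to 0.88. Its unadjusted p in limma was 0.0075 and its adjusted p 0.639. Probe ILMN_2986309 gave 801, 659.8, 636 and 821 in the Nd2-mutant mice and 466, 497, 583 and 568 in the control mice in the same order. Here too the groups were apart, with means of 729.6 ± 95.3 (SD, n = 4) and 529 ± 56.1 (SD, n = 4). The log2 difference was 0.45, with a 95% interval from 0.12 to 0.78, an unadjusted p of 0.012 and an adjusted p of 0.639 in limma. The exact permutation test gave each probe a 2-sided p of 0.0286, the smallest that 4 against 4 values can give. Among the 50 probes these were the 2 without overlap in the higher direction, and none was without overlap in the lower, against 2.24% and 2.13% of all tested probes.

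Since the strains do not overlap on the Psme1 probes, their direction could not turn within a sex or without a mouse, and only the sizes are given. Within males the difference was 0.56 on ILMN_2671204 and 0.42 on ILMN_2986309, and within females 0.49 and 0.48. Leaving out each mouse in turn gave 0.43 to 0.60 on the first probe and 0.39 to 0.51 on the second. Nd2-mutant mouse 35, with the highest macrophage marker sum, also had the highest Psme1 intensity on both probes, and without it the differences were 0.45 and 0.39. The part of macrophages in the result was not tested beyond this.

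The letters of an interferon-stimulated element stand at the start of Psme1. In the RefSeq promoter windows (GRCm38.p6, 250 bases before to 50 after each gene's start), the short form GAAANNGAA of this element was searched on both strands. It was present in 8.56% of all 32851 windows and in 6 of the 38 windows of member genes (Psmb3, Psmb4, Psmc2, Psmd4, Psmd9 and Psme1), which belong to 35 of the 41 member symbols. The Psme1 stretch is shown because its probes were the only members without overlap between the strains. It lies at chr14:55578491-55578520 on the plus strand, the match begins at position 10 with the first base of the gene as 0, and the capitals mark the match, which reads on the reverse strand.
Psme1: ttcgagctgtgctTTCGCTTTCccttcccg
A match of letters is a description and does not show that a factor binds there.

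Of the other genes named above as raised by interferon-gamma, the immunoproteasome genes lay on both sides of 0 and Psme2 was not tested. Psme2, the beta partner of Psme1 in PA28, was near the detection limit: its only probe was detected on 2 Nd2-mutant arrays and on no control array and was not tested. Its intensities were 14.2, 13.7, 6.53 and 7.18 in Nd2-mutant mice 28, 32, 34 and 35 and 3.75, 5.03, 12.2 and 10.6 in control mice 15, 16, 17 and 37, so that the groups overlapped. Psmb10, the immunoproteasome counterpart of Psmb7, had lower means in Nd2-mutant fibroblasts on both of its probes, with overlap. These were 271 ± 44.9 against 338 ± 65.7 (SD, n = 4 each) on ILMN_2757870, a log2 difference of -0.30 (adjusted p = 0.67 in limma), and -0.27 on ILMN_2914843 (adjusted p = 0.70). Psmb8 differed by 0.10 with intensities of 15.6 to 20.3 in Nd2-mutant and 10.8 to 18.0 in control fibroblasts. Psmb9 differed by -0.02 (0.13 without mouse 15) and spread from 29.2 to 51.8 and from 31.6 to 63.1. Both are counterparts of constitutive catalytic subunits, Psmb5 and Psmb6, and in neither did the strains separate.

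Psmf1, which encodes the proteasome inhibitor PI31, gave different answers on its probes. On the dim probe ILMN_3094023 the intensities were 16.6, 18.2, 27.6 and 24.0 in Nd2-mutant mice 28, 32, 34 and 35 and 8.72, 19.4, 14.3 and 10.6 in control mice 15, 16, 17 and 37. Control mouse 16 lay inside the Nd2-mutant range, and only 2 control arrays detected the probe, which entered the test through the Nd2-mutant arrays, where it was higher. The log2 difference was 0.36 with an unadjusted p of 0.048 (adjusted p = 0.639 in limma), and 0.29 with an unadjusted p of 0.095 without control mouse 15. The bright probe ILMN_1233929, at 534 ± 63.0 against 568 ± 49.1 (SD, n = 4 each), differed by -0.09. Psme3, the subunit of the nuclear PA28 ring, differed by 0.13, and Psme4 by 0.01 on the probe that was tested, which gave -0.02 without mouse 15.

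**Figure D2:**
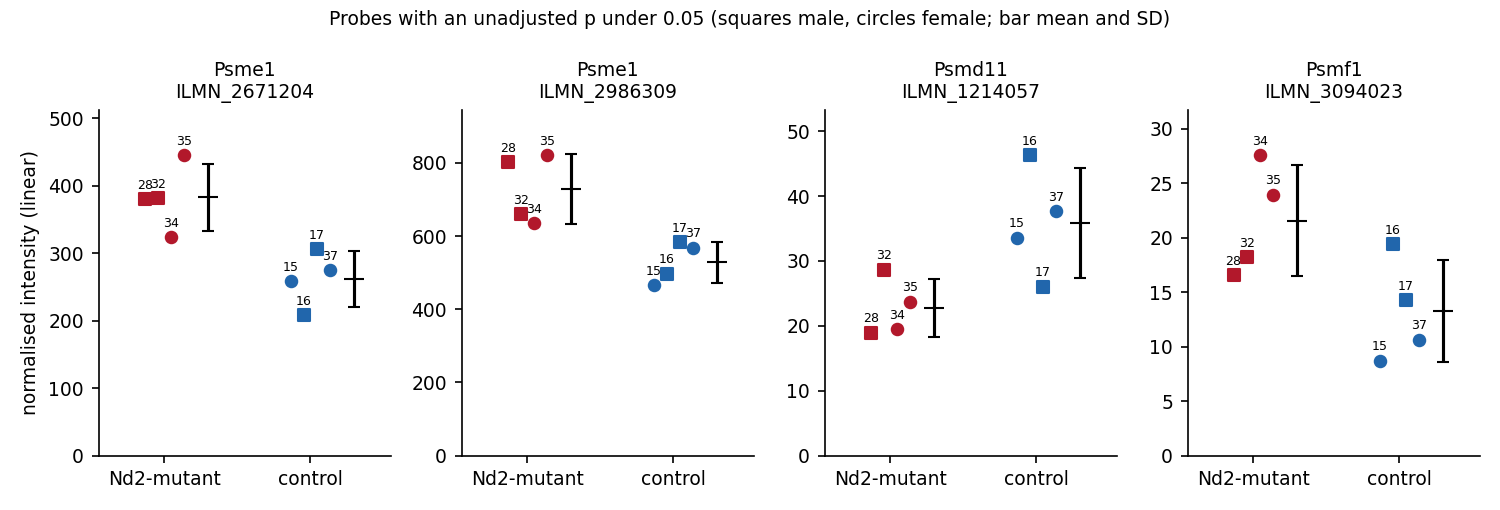
Normalised intensity (y axis, linear, from 0) of the 4 proteasome probes with an unadjusted p under 0.05, by strain; each point is 1 mouse with its number (squares male, circles female), and the bar is the mean and SD of 4 mice. The strains do not overlap on either Psme1 probe and overlap at mouse 32 and mouse 17 for Psmd11 and at mouse 16 for Psmf1.

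The direction of the 20S core depended on 1 control mouse. Of its 15 tested probes 14 were higher in Nd2-mutant fibroblasts, with a median log2 difference of 0.12 and a range from -0.00 to 0.55, and none had an unadjusted p under 0.05. Control mouse 15 had the lowest intensity of all 8 mice on 15 of these 15 probes. Without it 8 were higher and 7 lower, with a median of 0.00. Between the mice of a strain the core probes had a median SD (log2) of 0.10 in Nd2-mutant and 0.29 in control fibroblasts, and of 0.08 in the control mice other than 15. Over all tested probes the median SD was 0.18, 0.29 and 0.20 in the same order.

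The single genes show the same shape. Psma7, an alpha subunit, gave on ILMN_2793488 intensities of 979, 1142, 1053 and 1106 in Nd2-mutant mice 28, 32, 34 and 35, and 625, 1187, 1173 and 1198 in control mice 15, 16, 17 and 37. Control mouse 15 was far below the other 7, and those other 3 control mice all stood above the 4 Nd2-mutant mice. The log2 difference was 0.08, and -0.15 without mouse 15. Its other probe, ILMN_2630328, gave 0.11 and -0.12. Psma5, an alpha subunit with the smallest p of its group, gave 3557, 3329, 3512 and 2889 in the Nd2-mutant mice and 2126, 2975, 3064 and 3051 in the control mice. Nd2-mutant mouse 35 lay below 3 control mice, and the difference of 0.25 (adjusted p = 0.67 in limma) was 0.13 without mouse 15. Psma2, the brightest alpha probe, differed by 0.08 and Psma4 by 0.16, and without mouse 15 by -0.01 and 0.10.

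Among the catalytic subunits Psmb7 (trypsin-like activity) had the largest difference of all 50 probes, on ILMN_1221340. Its intensities were 759, 607, 710.3 and 542 in Nd2-mutant mice 28, 32, 34 and 35 and 186, 440.1, 703 and 634 in control mice 15, 16, 17 and 37. Control mice 17 and 37 lay within the Nd2-mutant range. The log2 difference of 0.55 had a standard error of 0.35 (adjusted p = 0.67 in limma) and was 0.16 without mouse 15. The other probes of Psmb7 gave 0.32 (ILMN_1233153) and 0.10 (ILMN_2836147), and without mouse 15 they gave 0.07 and -0.03. Psmb5, of the chymotrypsin-like activity, gave 249.8, 425, 289 and 335 in the Nd2-mutant mice and 154, 397, 341 and 325 in the control mice. The strains overlapped, with a difference of 0.14, and -0.14 without mouse 15. Psmb6, of the caspase-like activity, was the 1 core probe on the lower side, at -0.00, and at -0.14 without mouse 15. The structural subunits Psmb1, Psmb2, Psmb3 and Psmb4 differed by 0.03 to 0.18 over 5 probes, and by -0.05 to 0.06 without mouse 15.

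The low values of control mouse 15 reached beyond the core. Taking each probe's distance from its mean over the 8 mice, the median over the 50 proteasome probes was -0.35 in mouse 15, against -0.04 over all tested probes in the same mouse. In the other 7 mice the median over the proteasome probes was between -0.02 and 0.11. Mouse 15 was the lowest of the 8 mice on 33 of the 50 probes (66%), against 31.4% of all tested probes, and the highest on 1 (Psmg2, ILMN_3074516), against 26.5%. By role its median distance was -0.43 for the 20S core, -0.20 for the 19S subunits, -0.43 for the 19S assembly chaperones and -0.19 for the caps and the inhibitor. In the other 7 mice the medians lay between 0.02 and 0.13 for the core and between -0.04 and 0.19 for the 19S subunits. They lay between -0.26 and 0.25 for the 19S assembly chaperones and between -0.15 and 0.17 for the caps and the inhibitor. This mouse also had the highest summed fibroblast markers (48490) and endothelial markers (538, against 128 to 368 in the other mice). Their part in the low proteasome values was not tested.

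**Figure D3:**
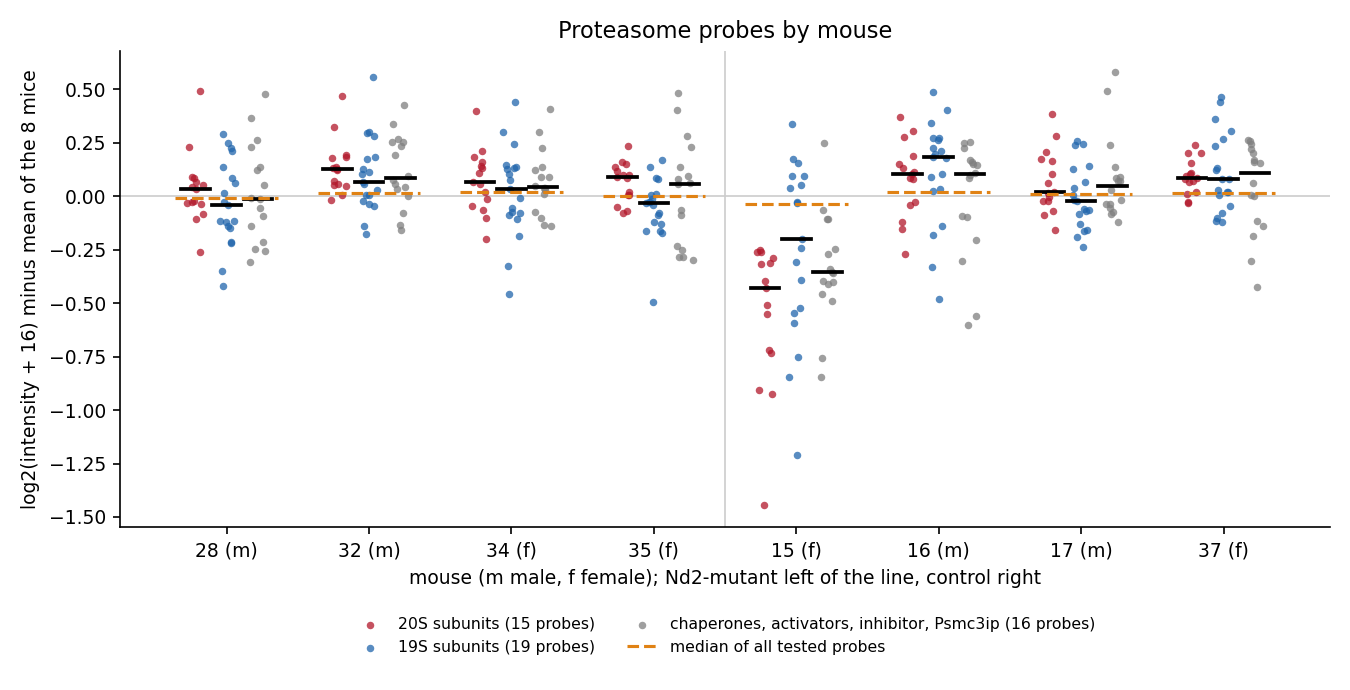
Distance of each tested proteasome probe from its own mean over the 8 mice (y axis, log2 of intensity plus 16) in each mouse (x axis), coloured by part of the proteasome; black bars are medians of the coloured points and dashed lines the median of all tested probes in that mouse. All 15 core probes of control mouse 15 lie below 0, with a median of -0.43, while the core medians of the other 7 mice lie between 0.02 and 0.13. The 19S median is -0.20 in control mouse 15 and 0.19 in control mouse 16.

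The 19S particle divided between the directions. Of its 19 tested probes 8 were higher and 11 lower, with a median log2 difference of -0.03, and mouse 15 was the lowest on 9 of the 19. Without mouse 15, 6 were higher and 13 lower, with a median of -0.09. Psmd11, a scaffold subunit of the lid, held the only lower probe with an unadjusted p under 0.05. On ILMN_1214057 it gave 18.97, 28.6, 19.5 and 23.7 in Nd2-mutant mice 28, 32, 34 and 35 and 33.6, 46.3, 26.04 and 37.6 in control mice 15, 16, 17 and 37. Nd2-mutant mouse 32 lay above control mouse 17, so the strains overlapped. The log2 difference was -0.42 with a 95% interval from -0.77 to -0.06 (unadjusted p = 0.025, adjusted p = 0.639 in limma), and -0.43 without mouse 15. Its brighter probe, ILMN_2888116, differed by -0.03 (-0.10 without mouse 15), at 138 ± 29.8 against 140.3 ± 21.7 (SD, n = 4 each).

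Psmd4, a receptor for ubiquitin chains and the brightest non-ATPase probe, gave 2482, 2556, 2714 and 2732 in Nd2-mutant mice 28, 32, 34 and 35 and 3651, 3665, 2854 and 2694 in control mice 15, 16, 17 and 37. Only control mouse 37 fell within the Nd2-mutant range. The log2 difference was -0.28 with an unadjusted p of 0.086 and an adjusted p of 0.639 in limma. On the linear scale the difference was -595 (adjusted p = 0.76 in limma), a coefficient that the study lists among genes lower in Nd2-mutant fibroblasts. The study's list also holds Psmg2. Under the printed symbol Psmc11 it further holds the linear difference of Psmd11 ILMN_1214057, which was -13.2 (adjusted p = 0.76 in limma). Psmd14, the deubiquitinating subunit, lay on the other side at 0.29 (unadjusted p = 0.11), with 433, 513, 456 and 441 in the Nd2-mutant and 312, 326, 498 and 380.5 in the control mice. Control mouse 17 was inside the Nd2-mutant range and the other 3 control mice were below it. Psmd7, a lid subunit, gave 0.49 on ILMN_1220284, where mouse 15 had an intensity of 134 against 233 to 463 in the other control mice, and -0.08 on its brighter probe. Without mouse 15 these were 0.17 and -0.17. Psmd6, also of the lid, gave 0.33 (ILMN_1241910) and -0.09, and without mouse 15 it gave 0.10 and -0.07. Psmd8 differed by -0.09. Among the ATPases 3 probes were higher and 3 lower, between -0.13 (Psmc4) and 0.22 (Psmc5, ILMN_1220632). The other Psmc5 probe gave -0.03, and Psmc2, the brightest, gave 0.13. Without mouse 15 these ATPase probes of Psmc5 gave 0.06 and -0.04, and Psmc2 gave 0.05.

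Assembly factors showed small differences in both directions. Of the 6 probes of the 19S chaperones Psmd5, Psmd9 and Psmd10, 4 were higher and 2 lower, and Psmd9 (0.21 and -0.02) and Psmd10 (0.20, 0.10 and -0.06) had probes on both sides of 0. Without mouse 15 the values were 0.10 and -0.14 for Psmd9 and 0.11, -0.16 and -0.21 for Psmd10. Of the 20S chaperones, Psmg2 gave 207, 216, 251 and 201 in Nd2-mutant mice 28, 32, 34 and 35 and 292, 291, 256 and 243 in control mice 15, 16, 17 and 37 on ILMN_3074516. Nd2-mutant mouse 34 lay above control mouse 37. The log2 difference was -0.29 (unadjusted p = 0.059, adjusted p = 0.639 in limma), and the other Psmg2 probe gave -0.03. Psmg3 differed by -0.02. Without mouse 15 these were -0.25, -0.15 and -0.11. Psmg1, the partner of Psmg2, is on the array under its older symbol Dscr2 and outside the rule. With all mice it differed by 0.01. Its intensities were 187, 178, 172 and 184 in Nd2-mutant mice 28, 32, 34 and 35. In control mice 15, 16, 17 and 37 they were 106, 204, 215 and 218. Control mouse 15 was thus the lowest of all, and the other control mice lay above every Nd2-mutant mouse. Over all roles 13 genes had several tested probes, and in 6 of them (Psmc5, Psmd6, Psmd7, Psmd9, Psmd10 and Psmf1) the probes disagreed in direction. Psmc3ip, the meiotic factor, differed by 0.02, and by -0.14 without mouse 15.

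Sex was a second factor of the design, and both member probes with an unadjusted p under 0.05 for sex were of Psmd10, higher in males. Psmd10 encodes gankyrin, a 19S chaperone whose gene the array table places on the X chromosome. On ILMN_3003308 the intensities were 680.3, 716, 733 and 740.3 in the males (mice 28, 32, 16 and 17) and 565, 505, 469 and 652 in the females (mice 34, 35, 15 and 37). All males lay above all females, at 717 ± 26.8 and 548 ± 80.3 (SD, n = 4 each). The share of all tested probes without overlap between the sexes was not counted, so this separation has no background beside it. Male minus female, the log2 difference was 0.39 (unadjusted p = 0.023, adjusted p = 0.54 in limma with strain as a term). Probe ILMN_2694080 gave 0.44 (unadjusted p = 0.013, adjusted p = 0.49) and ILMN_1239384 gave 0.48 (unadjusted p = 0.080). These were 2 of the 50 probes with an unadjusted p under 0.05, against 8.31% of all tested probes. Without control mouse 15, a female, the 3 differences were 0.29, 0.42 and 0.26, and 3 of the 50 probes (2 of Psmd10 and Psmg3) had an unadjusted p under 0.05, against 9.3% of all tested probes. The interaction of strain and sex had an unadjusted p under 0.05 for 1 probe, the dim Psmf1 probe ILMN_3094023 (-0.67, adjusted p = 0.9999 in limma), against 1.77% of all tested probes. Without mouse 15 that probe gave -0.62 with an unadjusted p of 0.055, and 1 other probe (Psmd12, ILMN_1216211) had one under 0.05, against 4.33% of all tested probes.

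**Figure D4:**
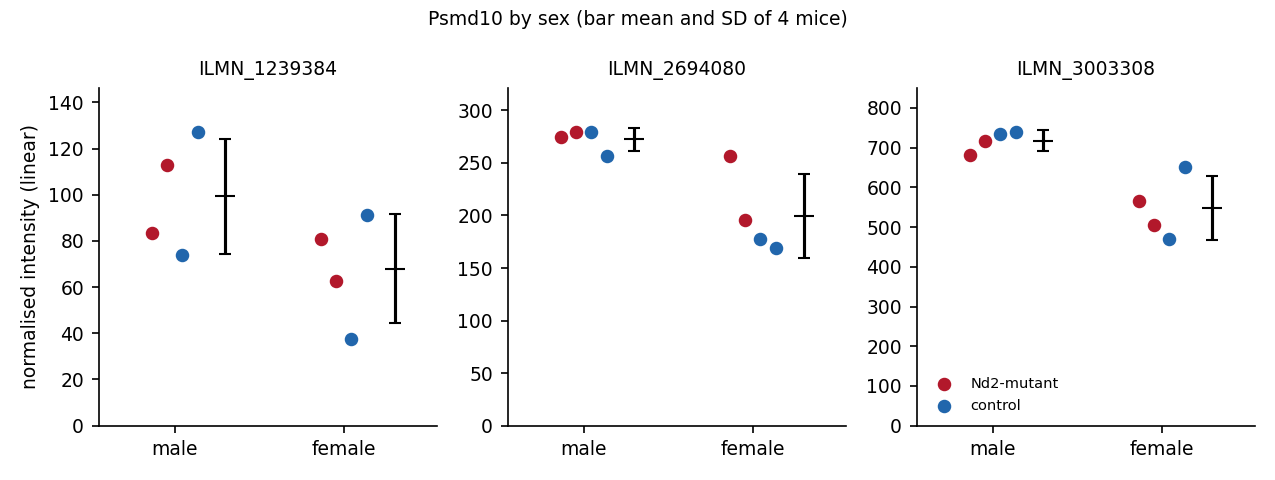
Normalised intensity (y axis, linear, from 0) of the 3 Psmd10 probes in male and female mice; each point is 1 mouse (red Nd2-mutant, blue control) and the bar is the mean and SD of 4 mice. Males and females do not overlap on ILMN_3003308 and overlap on the other probes. The share of all tested probes without overlap by sex was not counted.

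Other genes of the ubiquitin and proteasome pathway were taken from a list of 33, of which 26 had a probe and 21 were tested, with 27 probes. Of these, 17 were higher and 10 lower, with a median log2 difference of 0.06, and without mouse 15, 12 were higher and 15 lower. Their median distance from the mean of the 8 mice was -0.27 in mouse 15. The regulator Nfe2l1 gave 1458, 1483, 1192 and 1589 in Nd2-mutant mice 28, 32, 34 and 35 and 2413, 1654, 1791 and 1397 in control mice 15, 16, 17 and 37. Control mouse 15 was the highest of the 8 for this gene, unlike the median of the list. The difference was -0.32 (adjusted p = 0.65 in limma), and -0.17 without mouse 15. Nfe2l2, the regulator of the oxidative stress response, differed by 0.29 (adjusted p = 0.70), and Pomp, which matures the core, by 0.06 (-0.03 without mouse 15). Ubqln1, a shuttle for ubiquitinated proteins, had the 1 probe of the 27 with an unadjusted p under 0.05, against 4.5% of all tested probes higher and 3.13% lower: ILMN_2482555, at 72.3, 48.0, 50.2 and 26.4 in the Nd2-mutant and 5.56, 15.9, 35.9 and 42.1 in the control mice. Nd2-mutant mouse 35 lay among the controls, and only 3 control arrays detected the probe, which entered the test through the Nd2-mutant arrays, where it was higher. Its difference was 0.73 (unadjusted p = 0.045, adjusted p = 0.639 in limma). Without mouse 15 it was 0.46 with an unadjusted p of 0.12, and 0 of the 27 probes had an unadjusted p under 0.05 in limma. Another dim Ubqln1 probe, ILMN_2479786, gave 0.53 (unadjusted p = 0.060 in limma), and 0.30 without mouse 15. Only 2 control arrays detected it, and it too entered the test through the Nd2-mutant arrays. The bright Ubqln1 probe ILMN_2508410 gave -0.13, and -0.25 without mouse 15. Ubb, a ubiquitin gene, had a probe without overlap between the strains (ILMN_2516699, 0.18 higher in Nd2-mutant fibroblasts, adjusted p = 0.69 in limma), against 2.24% of all tested probes.

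Of the promoter letters that Nfe2l1 and Nfe2l2 are known to read, the core TGACNNNGC was searched on both strands. It was in 12.4% of all windows and in 6 of the 38 member windows (Psmb5, Psmb6, Psmc6, Psmd9, Psmd12 and Psme4). The CCAAT box, a separate motif and not one of these letters, was in 37.4% of all and 13 of the member windows. The stretches of the catalytic subunits Psmb5 (chr14:54618008-54618067, minus strand, match at position -47) and Psmb6 (chr11:70525323-70525356, plus strand, match at position -9) are shown, with the match in capitals.
Psmb5: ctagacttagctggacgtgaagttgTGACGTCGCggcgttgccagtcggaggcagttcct
Psmb6: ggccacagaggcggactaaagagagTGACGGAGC

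The other 11 member probes were not tested. The probes of Psma1, Psma3 and Psma6, and 1 probe each of Psmb2, Psmd2, Psmd5 and Psmd11, were detected on no array. For Psma1, Psma3 and Psma6, subunits of every 20S core, these were the only probes, and no level is given for these genes. Psmc6 was detected on 3 arrays, the second Psmd2 probe on 5, and Psme2 and the second Psme4 probe on 2 each. Psmd3, Psmg4, Psma8, Psmb11 and Psme2b were not analysed here.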

How the data were processed

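RNA of fibroblasts of 4 Nd2-mutant and 4 control mice was hybridised to 8 arrays. The authors read them in GenomeStudio, quantile normalised and subtracted the background; the deposited values are intensities on the linear scale, each with a deposited detection p-value. The deposited normalised and non-normalised tables hold identical bytes, and arrays carry no chip name, so neither normexp background correction (neqc) nor a chip block was run. Array number and signal over background limit precision.

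Negative values were set to 0 and log2 was taken after adding 16. A probe was tested if its detection p-value was under 0.01 on all 4 arrays of a strain or the other. Differences were tested 2-sided with limma 3.58.1 (lmFit, eBayes) in R 4.3.3, with Benjamini-Hochberg adjustment over 10414 probes and a threshold of 0.05. Sex was tested in a fit that held strain, and a further fit added their interaction. The steps were tested on simulated data. Gene names are those of the array; list genes were matched to it by symbol or RefSeq synonym (116 of 132).

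Named were, per role, the brightest probe and that of smallest p, probes with an unadjusted p under 0.05 or without overlap, genes whose probes disagree in direction, probes with an extreme mouse, Psmb8, Psmb9, Psmb10, Nfe2l1, Nfe2l2 and Pomp, and pathway genes with an unadjusted p under 0.05; others were named after their values were seen. The values of 1 pathway gene are not reported here. The members and lists were chosen with earlier results of these data known. Alternatives were another added value, scale, filter, test, prior, array weights, sex, centring, 1 probe per gene, each sex alone and each mouse left out; the sex and interaction fits without control mouse 15 were added after the data had been seen. Checked markers were those of fibroblasts, keratinocytes, macrophages, endothelial cells, melanocytes, and smooth muscle and pericytes. The sums over the arrays were 196 to 1169 for keratinocyte, 2.76 to 24.0 for melanocyte and 11041 to 14754 for smooth muscle and pericyte markers.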

Additional observations from a re-analysis of the deposited data

Results flagged for a closer look

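In 100 groups of 4 mice (50 tested proteasome probes in each strain), 9 had a mouse whose gap to the nearest other mouse, divided by the range of the strain, was above Dixon's critical value, where chance gives about 5. In 3 of the 9 the mouse was control mouse 15, below the other control mice: Psma7 on ILMN_2793488 (0.957) and on ILMN_2630328 (0.871) and Psma5 (0.904). Control mouse 16 was above the other control mice for Psmd8 (0.840). Among Nd2-mutant mice, mouse 28 was below the others for Psmb2 on ILMN_2949632 (0.862) and for Psmf1 on ILMN_1233929 (0.911). Mouse 32 was above the others for Psmb7 on ILMN_1233153 (0.840) and for Psmg2 on ILMN_3153450 (0.830). Mouse 34 was above the others for Psmc5 on ILMN_1220632 (0.929).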

How the results depend on the processing

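No paired analysis was possible because Nd2-mutant and control mice carry different numbers. The count of proteasome probes past an adjusted p of 0.05 was 0 under every alternative run. The count at an unadjusted p under 0.05 was 4 and lay between 3 and 5 without each mouse; it was 6 with no filter, 2 in male mice, 1 in female mice and 1 with 1 probe per gene (Psme1). The median log2 difference was 0.09; it was 0.03 with no filter or with 1 probe per gene, 0.00 with array weights, which gave control mouse 15 a weight of 0.19, -0.00 in males, 0.18 in females and between -0.05 (without control mouse 15) and 0.13 without each mouse. Of 39 named results, 21 kept their direction under every alternative run, which for both Psme1 probes follows from the lack of overlap between the strains, and 0 passed the adjusted threshold under any.
With array weights the direction turned to -0.081 for Psma7 ILMN_2630328, -0.097 for Psma7 ILMN_2793488, 0.096 for Psmb9 ILMN_1242466, -0.11 for Psmc3ip ILMN_2999654, -0.13 for Psmd10 ILMN_1239384, 0.021 for Psmd8 ILMN_2678019, -0.077 for Psme4 ILMN_2947187. In male mice the direction turned to -0.12 for Pomp ILMN_2625352, -0.14 for Psma7 ILMN_2630328, -0.16 for Psma7 ILMN_2793488, -0.052 for Psmb2 ILMN_2949632, 0.11 for Psmb9 ILMN_1242466, -0.26 for Psmc3ip ILMN_2999654, -0.069 for Psmc5 ILMN_1220632, -0.0033 for Psmd10 ILMN_1239384, 0.11 for Psmd6 ILMN_1254132. In female mice the direction turned to 0.0035 for Psmd7 ILMN_2630438, 0.042 for Psmd9 ILMN_2593662, -0.14 for Psme4 ILMN_2947187, 0.0016 for Psmf1 ILMN_1233929. Leaving out each mouse in turn, the lowest and highest values, on either side of 0, were -0.029 and 0.18 for Pomp ILMN_2625352, -0.0075 and 0.15 for Psma2 ILMN_2641238, -0.12 and 0.19 for Psma7 ILMN_2630328, -0.15 and 0.16 for Psma7 ILMN_2793488, -0.11 and 0.13 for Psmb9 ILMN_1242466, -0.14 and 0.11 for Psmc3ip ILMN_2999654, -0.076 and 0.0084 for Psmc5 ILMN_1251877, -0.16 and 0.31 for Psmd10 ILMN_1239384, -0.21 and 0.027 for Psmd10 ILMN_3003308, -0.18 and 0.047 for Psmd6 ILMN_1254132, -0.20 and 0.065 for Psmd8 ILMN_2678019, -0.14 and 0.060 for Psmd9 ILMN_2593662, -0.054 and 0.082 for Psme4 ILMN_2947187, -0.15 and 0.024 for Psmg2 ILMN_3153450. The cause was not tested.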
